A study of Mus musculus with 6 samples.

Results

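The genes described here are 8 transcripts that mark the proximal tubule of the kidney: Lrp2, Cubn, Amn, and Dab2 of its endocytic apparatus, Vil1 and Pdzk1 of its brush border, the transcription factor gene Hnf4a, and the enzyme gene Miox. The 8 symbols were picked with earlier results of these data known, and their probes were then taken by name, as every non-control probe whose gene name in the array files is one of them. All 8 genes were represented, by 17 of the 56605 non-control probes of the array, and all 17 probes were well above background on all 6 arrays. Left kidneys came from 3 WT mice of strain C57BL/6J and 3 mice lacking Selenbp1 (Selenbp1-KO). All 6 were males of 8 weeks, fasted for 20 h before the kidney was taken, and each kidney was hybridized to its own single-color Agilent array. The WT mice were obtained from a breeder, and the methods do not describe them as littermates of the Selenbp1-KO mice. The comparison asks how the loss of Selenbp1, a selenium-binding protein, is accompanied by other RNA levels in the fasted kidney.

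The proximal tubule takes back most of what the glomerulus filters. Its cells carry a brush border of microvilli on the luminal side and, at the base of the microvilli, clathrin-coated pits in which the large receptors megalin (Lrp2) and cubilin (Cubn) bind filtered proteins, vitamin carriers, and hormones. Cubilin has no membrane anchor of its own and reaches the surface with amnionless (Amn), and the adaptor Dab2 links the tail of megalin to clathrin. These genes, with the nuclear receptor Hnf4a and the inositol-degrading enzyme Miox, are commonly read as signs of a differentiated proximal tubule.

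Selenbp1 itself gave a log2 signal between 7.02 and 7.07 in the WT kidneys and between 3.98 and 4.13 in the Selenbp1-KO kidneys, so each array carried the genotype of its label. Signals listed for single kidneys follow the order WT replicate 2, 3, 4 and Selenbp1-KO replicate 1, 2, 3. Every log2 signal given here is relative to the 75th percentile of the array, which lay between 477 and 751 intensity units. Between 51.8% and 55.5% of the spots of an array were well above background, and 0 spots were saturated. All 6 arrays lie on a single slide. A field of the array barcode in the file headers, called the slide side here, is 1 for WT replicates 2 and 3. It is 2 for WT replicate 4 and the 3 Selenbp1-KO replicates, so the side and the genotype are partly confounded. The name side is given here and is not taken from the headers.

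The 250 bases before the annotated transcription start were read from RefSeq (GRCm38.p6) for all 8 genes, in 11 entries, 3 of the genes having 2 entries each. The arrays measured no binding at these promoters, and the letters are given to describe the genes, not to account for a level. TATAAA, the letters of a TATA box, was searched on both strands and was found upstream of Miox, 1 of the 8 genes, and in 12.4% of all 32851 entries of the same length. CAAAGTCCA, a motif of HNF4 itself, was found upstream of 0 of the 8 genes and in 0.384% of all entries. These motifs were chosen after the promoters had been seen. The upstream bases of Miox are shown for the match, in capitals, and those of Vil1 because its genotypes did not overlap on the arrays. Both lie on the plus strand, Miox at chr15:89334223-89334472 and Vil1 at chr1:74409134-74409383, and run 5′ to 3′ up to the last base before the start.
Miox: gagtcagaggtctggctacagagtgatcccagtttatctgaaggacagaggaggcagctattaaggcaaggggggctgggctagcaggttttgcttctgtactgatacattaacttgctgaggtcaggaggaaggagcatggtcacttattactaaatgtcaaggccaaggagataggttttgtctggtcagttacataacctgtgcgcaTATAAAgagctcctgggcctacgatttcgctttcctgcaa
Vil1: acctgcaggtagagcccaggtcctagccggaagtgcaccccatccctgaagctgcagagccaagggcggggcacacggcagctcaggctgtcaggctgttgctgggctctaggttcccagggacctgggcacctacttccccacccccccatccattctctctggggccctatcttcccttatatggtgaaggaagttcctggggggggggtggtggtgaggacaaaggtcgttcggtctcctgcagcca
In Miox TATAAA lay at -40 to -35, counted from the start. The Vil1 stretch held no match to either motif.

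None of the 8 genes passed the threshold between WT and Selenbp1-KO kidneys. The count was 0 of 8 genes and 0 of 17 probes at an unadjusted p under 0.05 in limma, where 7.98% of all 56097 probes tested passed, 1.51% as lower in Selenbp1-KO. The differences, Selenbp1-KO minus WT on the log2 scale, ran from -0.18 for Vil1 to 0.094 for Miox with a median of -0.028. Vil1 was the only gene whose genotypes did not overlap, being lower in every Selenbp1-KO kidney. Of all probes, 13.3% had genotypes that did not overlap, 4.06% with the Selenbp1-KO side lower, and among the 2871 probes at least as bright as the dimmest of the 8 the share was 26.1%, with 92 probes lower in Selenbp1-KO. The p adjusted by Benjamini-Hochberg lay between 0.303 and 0.970 for the 8 genes in limma. In whole-kidney RNA, fewer cells of a type and less RNA per cell cannot be told apart.

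**Figure D1:**
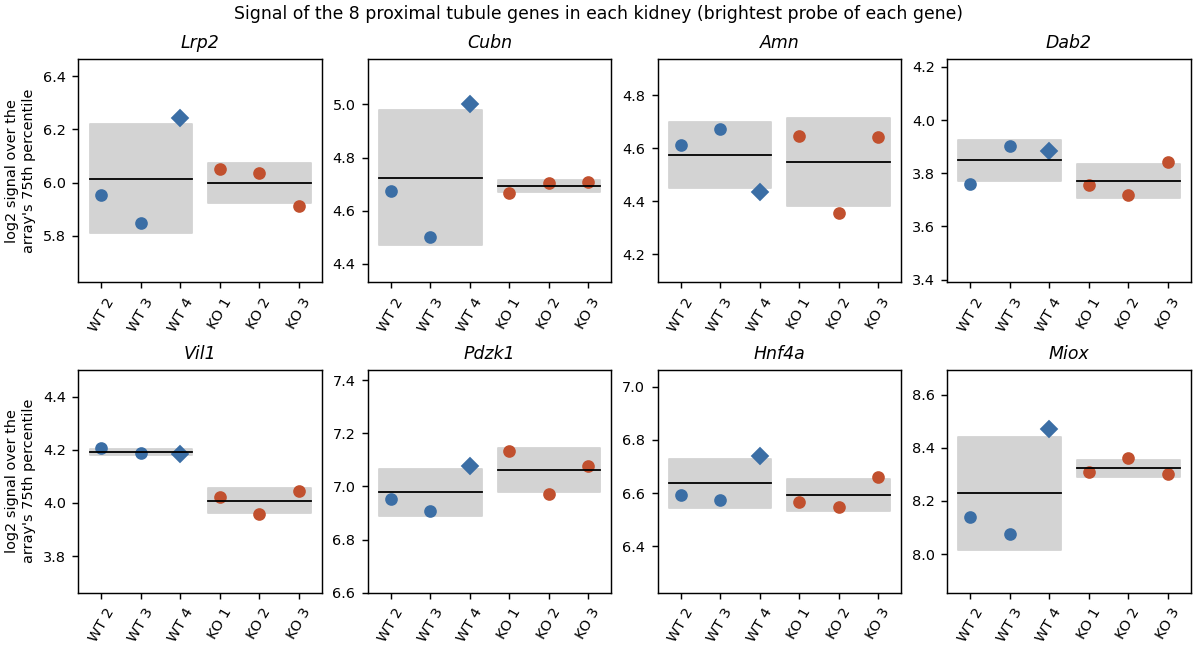
Log2 signal of the brightest probe of each gene (y axis, relative to the array's 75th percentile; every panel spans the same height) in the 3 WT kidneys (blue) and the 3 Selenbp1-KO kidneys (orange), with the mean of each genotype as a line and 1 SD to either side as a gray band. The diamond is WT replicate 4, the WT kidney on slide side 2; only for Vil1 do the genotypes not overlap.

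The endocytic receptors were read at nearly equal mean levels in both genotypes. Lrp2 encodes megalin, a very large receptor of the LDL receptor family. Its brightest probe (NM_001081088, chromosome 2 of mm9, 69262566 to 69262625, minus strand) had log2 signals of 5.95, 5.85, and 6.24 in the WT kidneys. The Selenbp1-KO kidneys gave 6.05, 6.03, and 5.91 at the same probe. The Selenbp1-KO kidneys thus lay within the span of the WT kidneys, of which replicate 4 was the highest of all 6. Megalin RNA differed by -0.015 (standard error 0.136, adjusted p = 0.970 in limma), with a 95% interval of 0.786- to 1.25-fold. The other 4 Lrp2 probes differed by -0.031, -0.14, -0.092, and -0.049, so all 5 probes were lower in the mean and 0 passed the threshold.

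Cubn encodes cubilin, the receptor for the intrinsic factor-vitamin B12 complex in the gut and for albumin and transferrin in the tubule. Its only probe (NM_001081084, chromosome 2 of mm9, 13197978 to 13198037, minus strand) gave a log2 signal of 4.67, 4.50, and 5.0 in the WT kidneys. In the Selenbp1-KO kidneys it gave 4.67, 4.71, and 4.71. The WT kidneys were spread over 0.499 and the Selenbp1-KO kidneys over 0.0428, and the latter again lay inside the WT span. Cubilin RNA differed by -0.031 (standard error 0.149, adjusted p = 0.939 in limma; 0.760- to 1.26-fold).

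The 2 partners of the receptors also overlapped between genotypes. Amnionless, the membrane anchor and chaperone of cubilin, is encoded by Amn (NM_033603, chromosome 12 of mm9, 112514095 to 112514243). The probe gave 4.61, 4.67, and 4.44 in the WT kidneys, against 4.65, 4.36, and 4.64 in those lacking Selenbp1. The lowest WT value was in replicate 4, the array on which Cubn and Lrp2 were highest. Between genotypes it differed by -0.025 (standard error 0.132, adjusted p = 0.945 in limma; 0.786- to 1.23-fold).

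Dab2, the clathrin adaptor, was read by 4 probes. The brightest (NM_001037905, chromosome 15 of mm9, 6389424 to 6389483) gave 3.76, 3.90, and 3.89 in the WT kidneys. It gave 3.75, 3.72, and 3.84 in the Selenbp1-KO kidneys. WT replicate 2 lay beside Selenbp1-KO replicate 1, and the other WT kidneys lay above all 3 Selenbp1-KO kidneys. This probe differed by -0.078 (standard error 0.101, adjusted p = 0.736 in limma; 0.798- to 1.12-fold). The other Dab2 probes differed by -0.053, -0.12, and -0.36, the last with a standard error of 0.392, at a probe (ENSMUST00000162140) whose Selenbp1-KO signals ran from -4.36 to -2.91. The difference at that probe was -0.027 with normexp background correction.

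**Figure D2:**
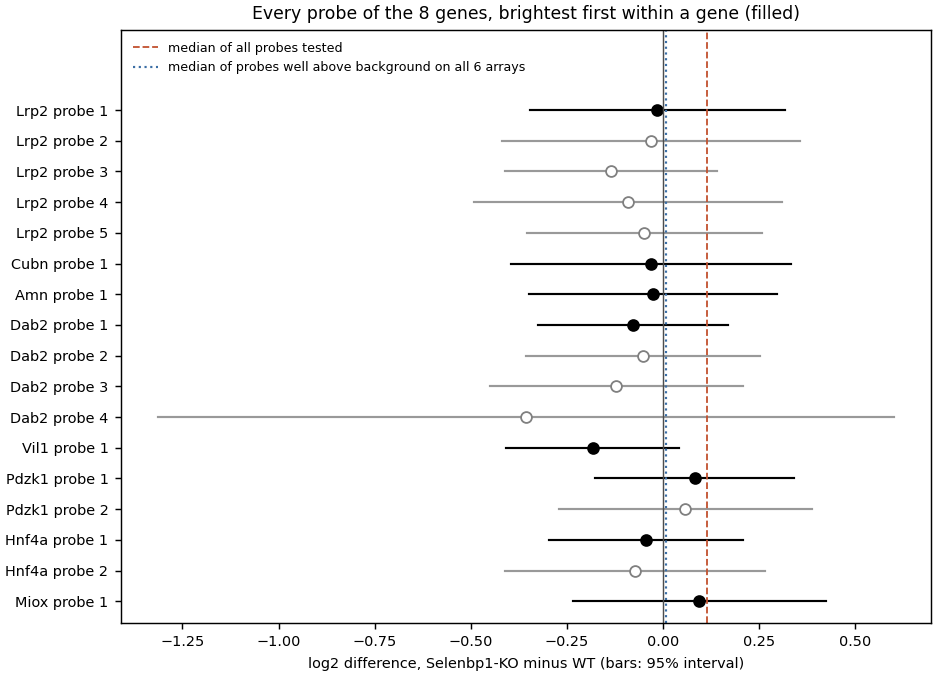
Log2 difference between Selenbp1-KO and WT kidneys (x axis) for each of the 17 probes (y axis), with its 95% interval from limma as a bar; the brightest probe of a gene is filled. Every interval crosses 0, 14 probes lie below 0, and all 17 lie below the median of all probes tested (0.11, dashed), which quantile normalization moved to 0.00; the dotted line is the median of the probes well above background on all 6 arrays.

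Of the brush border genes, Vil1 had the largest difference of the 8. It encodes villin, an actin-bundling protein of the microvillus core. Its probe (NM_009509, chromosome 1 of mm9, 74481982 to 74482041) gave 4.21, 4.19, and 4.18 in the WT kidneys. The Selenbp1-KO kidneys gave 4.02, 3.96, and 4.05. The WT kidneys were spread over 0.0210 only, and the lowest of them lay 0.138 above the highest Selenbp1-KO kidney. Villin RNA differed by -0.18 (standard error 0.0923; 0.881-fold, 95% interval 0.753- to 1.03-fold), with an unadjusted p of 0.0937 and an adjusted p of 0.303 in limma. An exact permutation test of this value gave 0.1, the smallest p that 3 against 3 arrays allow. Genotypes that do not overlap always give this p, so it only restates the separation. Vil1 was lower in Selenbp1-KO kidneys under each of the 20 other processings tried, by -0.22 to -0.16. The other filters and tests among these could not change a difference, only its p. Vil1 passed the unadjusted threshold under 5 of the 20, where 7.09% to 13.4% of all probes tested passed. Its adjusted p, in limma or the t-test, was never below 0.263.

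Pdzk1 encodes a scaffold with PDZ domains that holds transporters in the microvilli. Its brightest probe (NM_021517, chromosome 3 of mm9, 96674286 to 96674345) gave 6.95, 6.91, and 7.08 in the WT kidneys. In the kidneys lacking Selenbp1 it gave 7.13, 6.97, and 7.08. Selenbp1-KO replicate 1 was the highest array and WT replicate 3 the lowest, with the others interleaved. Pdzk1 differed by 0.082 (standard error 0.106, adjusted p = 0.736 in limma; 0.884- to 1.27-fold), and by -0.018 with quantile normalization. The second Pdzk1 probe differed by 0.058. Pdzk1 is the only one of the 8 genes on the chromosome of Selenbp1, its probe lying 1.93 Mb from that of Selenbp1 on mm9.

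Hnf4a encodes a nuclear receptor that drives genes of absorptive epithelia, among them those of the proximal tubule. Its brightest probe (NM_008261, chromosome 2 of mm9, 163398548 to 163398607) gave 6.59, 6.57, and 6.74 in the WT kidneys and 6.57, 6.55, and 6.66 in the others. The genotypes overlapped, with replicate 4 again the highest WT kidney. Hnf4a differed by -0.045 (standard error 0.103, adjusted p = 0.864 in limma; 0.814- to 1.15-fold), and by -0.073 at the second probe.

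Miox encodes myo-inositol oxygenase, which opens the ring of inositol to give glucuronate and is made mainly in the proximal tubule. Its probe (NM_019977, chromosome 15 of mm9, 89167378 to 89167437) gave 8.14, 8.08, and 8.47 in the WT kidneys. The Selenbp1-KO kidneys gave 8.31, 8.36, and 8.30, between WT replicate 4 and the other WT kidneys. Miox differed by 0.094 (standard error 0.135, adjusted p = 0.764 in limma; 0.85- to 1.34-fold) and turned to -0.12 with quantile normalization.

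Across the 8 genes, WT replicate 4 stood above the other kidneys. With each gene centered on its own mean over the 6 arrays, the mean of the 8 genes was 0.118 in WT replicate 4 and between -0.056 and 0.012 on the other 5 arrays. WT replicate 4 was the highest array for 4 genes, Lrp2, Cubn, Hnf4a, and Miox, whereas WT replicate 3 and Selenbp1-KO replicate 2 were each the lowest for 4. Amn was the exception, below its own mean in WT replicate 4. Without this kidney, the differences of Lrp2, Cubn, and Hnf4a turned to 0.10, 0.11, and 0.0079, that of Miox grew to 0.22 (unadjusted p = 0.0675, adjusted p = 0.199 in limma), and 3 of the 8 genes were lower in Selenbp1-KO. The WT kidneys left are then all on side 1 and the Selenbp1-KO kidneys all on side 2. Slide side and genotype cannot be told apart there, and 31.3% of all probes passed the threshold. Within slide side 2, which compares WT replicate 4 alone with the 3 Selenbp1-KO kidneys, Lrp2 differed by -0.24 and Cubn by -0.31. On that side Amn differed by 0.11, Dab2 by -0.11, Vil1 by -0.18, Pdzk1 by -0.017, Hnf4a by -0.15, and Miox by -0.15, and the fit with the side as a block gave the same differences. Side 1 holds no Selenbp1-KO kidney, so both compare a single WT array with 3 and carry no test of the genotype here. The part of the slide side in these values was not tested. Vil1 and Dab2 kept their sign with and without WT replicate 4.

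**Figure D3:**
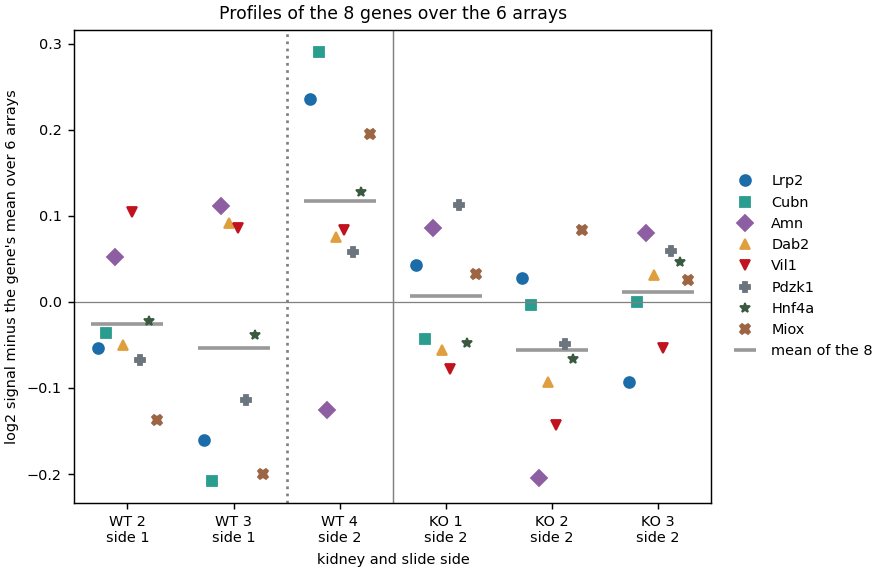
Log2 signal of each of the 8 genes minus its own mean over the 6 arrays (y axis) for each kidney (x axis, with its slide side); gray bars are the mean of the 8 genes. WT replicate 4 has the highest mean (0.118) with Amn as the only gene below 0, and Vil1 lies above 0 in all 3 WT kidneys and below 0 in all 3 Selenbp1-KO kidneys.

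The sign of the small differences depended on how the arrays were scaled. With the 75th percentile, 6 of the 8 genes were lower and 2, Pdzk1 and Miox, higher in Selenbp1-KO kidneys, whereas with quantile normalization and in the deposited value table all 8 were lower. The median difference of all probes was 0.11 with the 75th percentile and 0.00 with quantile normalization. Relative to that median all 8 genes lay lower with either, the median of the 8 standing at -0.142 from it with the 75th percentile and at -0.118 with quantile normalization. The reference also matters: probes well above background on all 6 arrays, 26819 in number, had a median difference of 0.0073, and with the filter that kept such probes in either genotype only 6 of the 8 genes lay below the median of those tested. Among the 2871 probes at least as bright as the dimmest of the 8, the median was 0.067. Of these, 28.0% were lower in Selenbp1-KO, and 3.55% passed the threshold. With quantile normalization Vil1 (-0.22, unadjusted p = 8.8e-04, adjusted p = 0.304 in limma) and Dab2 (-0.12, unadjusted p = 0.0421, adjusted p = 0.575 in limma) passed the unadjusted threshold, and in the value table Hnf4a did as well (-0.12, unadjusted p = 0.0487, adjusted p = 0.594 in limma). Of all probes, 8.37% passed with quantile normalization and 8.36% in the value table. Dab2 had the same sign under all 20 other processings, from -0.15 to -0.051, though the other filters and tests could not change a difference. The 6 genes other than Vil1 and Dab2 changed sign under 2 to 4 of the 20.

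**Figure D4:**
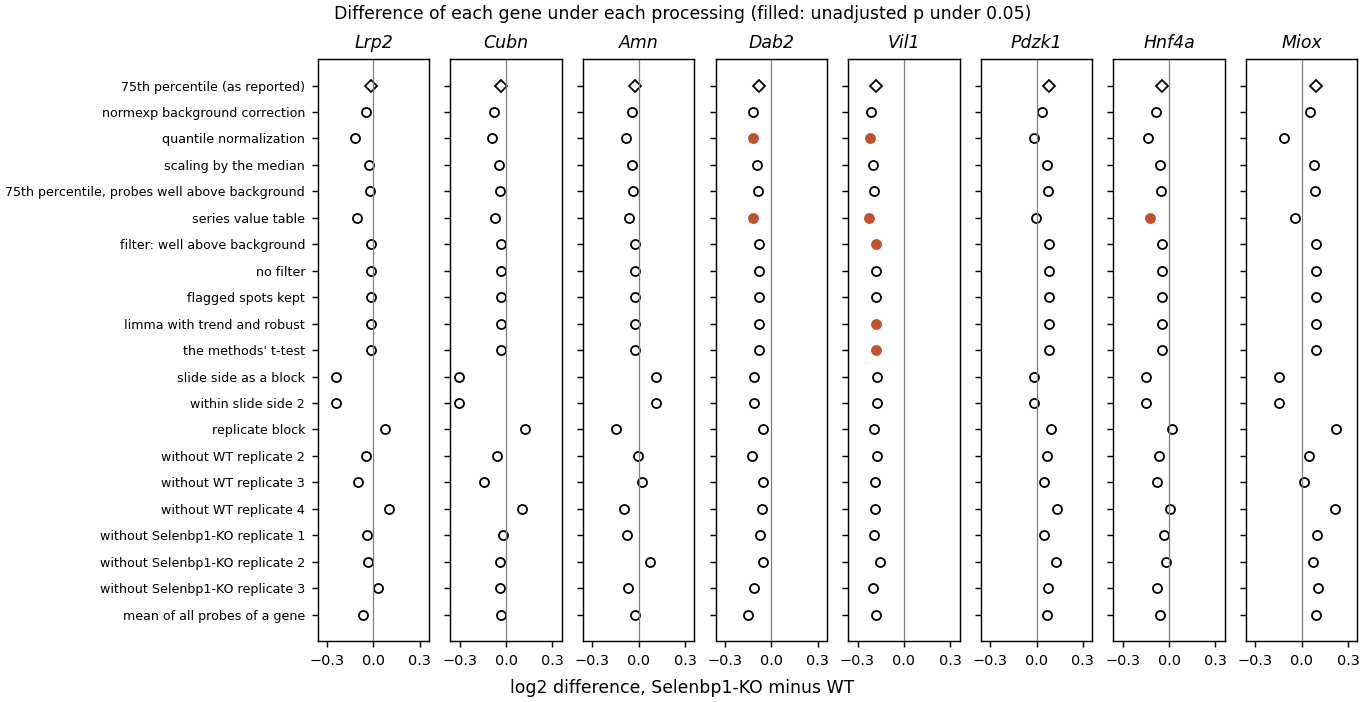
Log2 difference between Selenbp1-KO and WT (x axis) for each of the 8 genes under the reported processing (diamond) and 20 others (circles; y axis); filled symbols have an unadjusted p under 0.05. Vil1 and Dab2 lie left of 0 throughout, filled under 5 and 2 processings, and the other 6 genes lie on either side of 0. Processings that change only the filter or the test repeat the reported difference.

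The genes that work with these 8 gave counts near or below the background. Of all 37028 genes with 1 probe each, 8.00% passed the threshold, 1.13% as lower and 6.87% as higher, and the median difference was 0.13. Of 29 genes of the endocytic machinery, 16 were lower and 13 higher in the mean, with a median of -0.027. In this list the early endosome tether Eea1 fell by 0.40 (standard error 0.115) and the endosomal GTPase gene Rab5c rose by 0.70 (standard error 0.250), while Ap2s1, a clathrin adaptor subunit, differed by 0.24 without passing. Eea1 and Rab5c had unadjusted p of 0.0125 and 0.0316 and an adjusted p of 0.279 each in limma, and the WT kidneys alone spanned 2.94 to 3.91 in Rab5c. The count of 2 in this list was 1 without WT replicate 2, WT replicate 3, Selenbp1-KO replicate 1, or Selenbp1-KO replicate 3, and 5 with quantile normalization. Of 11 receptors of the LDL receptor family other than megalin, the WNT coreceptor gene Lrp6 fell by 0.31 (standard error 0.119) and the other 10 did not pass, among them Lrp1 at 0.29 and Sorl1 at -0.24. The count of this family was 0 when any array other than Selenbp1-KO replicate 3 was left out, and 3 with quantile normalization. Of 22 brush border genes, 11 were lower and 11 higher, with a median of -0.00063 and 0 past the threshold (1 with quantile normalization, 2 in the value table); the meprin gene Mep1b differed by 0.26, the actin bundler gene Espn by 0.16, and the aminopeptidase gene Enpep by -0.15.

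All 23 transporters of the proximal tubule on the list were well above background on all 6 arrays. Of these, 13 were lower and 10 higher, with a median of -0.024. The urate transporter gene Slc22a12 rose by 0.38 (standard error 0.142; unadjusted p = 0.0347, adjusted p = 0.279 in limma), whereas Slco1a1 at 0.52 and Slc7a13 at 0.36 did not pass. The transporter count was 0 without WT replicate 2, WT replicate 3, or Selenbp1-KO replicate 3 and 3 without WT replicate 4 or Selenbp1-KO replicate 2. The 9 further transcription regulators of the tubule had a median of -0.14, with 8 lower and 0 past the threshold. For these regulators 2 passed with quantile normalization, in the value table, and with trend and robust options, and 1 without WT replicate 4 or Selenbp1-KO replicate 3. Among them Ppara, the fatty acid receptor, differed by -0.31 (standard error 0.141) and Ppargc1a by -0.25. Genotypes did not overlap for 3 of the 9, Ppara, Rxra (-0.14), and Esrra (0.16). The share was 13.3% among all probes. It was 26.1% among the 2871 probes at least as bright as the dimmest of the 8 genes, as these 3 are. The paper reports Ppara and Rxra as lower in Selenbp1-KO kidneys, by its own analysis of the arrays and by RT-PCR. Around Miox, 12 genes of inositol and glucuronate metabolism had a median of 0.036, and only the inositol monophosphatase gene Impa2 passed, rising by 0.41 (standard error 0.115), with the inositol carrier Slc5a3 at -0.24 and Rgn at 0.22. Of 11 genes that handle vitamin B12, a ligand taken up through these receptors, 0 passed (2 with quantile normalization) and the median was 0.019. The transcobalamin receptor gene Cd320 stood at 0.20, with Mmachc at -0.16 and Mmut at -0.14. When single arrays were left out, the list medians ranged from -0.049 to 0.0086 for the endocytic machinery, -0.14 to 0.059 for the LDL receptor family, -0.017 to 0.037 for the brush border, -0.061 to 0.046 for the transporters, and -0.21 to -0.13 for the regulators. The signs of the inositol and vitamin B12 medians turned with quantile normalization, to -0.073 and -0.042.

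Markers of other kidney cells were counted in the same way. All 6 stromal markers were higher in Selenbp1-KO kidneys in the mean, and 3 passed: the matrix genes Lum rose by 0.85, Dcn by 0.83, and Col1a1 by 0.44, with a list median of 0.38. The summed level of the list was 4.33 to 4.71 in WT and 5.01 to 5.38 in Selenbp1-KO kidneys. Of 8 immune markers 7 were higher and 4 passed, Cd3e at 0.64, C1qa at 0.58, C1qb at 0.51, and Cd68 at 0.36. Ptprc, well above background on all 6 arrays, was lower, at -0.16. The summed levels of the list were 3.57 to 3.79 against 3.80 to 3.91. Most of that sum is the Csf1r signal, which differed by 0.17 with overlapping genotypes and did not pass. The B cell marker Cd79a, among the 4 that did not pass, was not well above background on any array. The immune count was 3 to 5 and the stromal count 2 to 4 when any single array was left out. Of 7 tubule injury markers, Cdkn1a rose by 0.58 and Vcam1 by 0.39, and Krt20 at 0.30 and the other 4 did not pass, among them Havcr1 at -0.14, which was well above background on 3 of 6 arrays. Lcn2 stood at -0.19 and Spp1 at -0.18, the latter lower in every Selenbp1-KO kidney than in every WT kidney. The summed level of the list, most of which is the Spp1 signal, was 6.07 to 6.18 in WT and 5.84 to 6.01 in Selenbp1-KO kidneys, and the list median of 0.26 turned to -0.11 without Selenbp1-KO replicate 2. The injury count was 1 without WT replicate 2, WT replicate 4, or Selenbp1-KO replicate 3. When all probes of a gene were averaged, 0 injury, 2 immune, and 3 stromal markers passed, and the injury median was -0.14. Within slide side 2, with WT replicate 4 alone against the 3 Selenbp1-KO kidneys, the medians were 0.29 (immune), 0.32 (stromal), and 0.10 (injury). The fit with the side as a block gave the same medians. With a single WT array, both carry no test of the genotype.

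The other nephron segments gave a median of 0.063 for 9 markers of the thick limb and distal tubule, where Pvalb rose by 0.32 and Trpm6 and Slc12a1 stood at -0.26 and -0.13. The summed levels of these markers were 8.47 to 8.57 in WT and 8.49 to 8.66 in Selenbp1-KO kidneys. For 10 collecting duct markers the median was 0.050 with 0 past the threshold (Aqp2 -0.26, Slc26a4 -0.20, Atp6v1g3 0.17), and the summed levels were 5.84 to 6.02 against 5.68 to 5.86. For 6 podocyte markers the median was -0.00088, with Synpo rising by 0.29, Cdkn1c at 0.11, and Nphs1 at -0.10, and summed levels of 4.10 to 4.20 against 4.12 to 4.26. For 6 endothelial markers the median was 0.025 with 0 past the threshold (Cdh5 0.099, Kdr 0.037, Tek 0.031), and the summed levels were 4.65 to 4.70 against 4.60 to 4.85. Pvalb and Synpo were the calls of their lists, whose counts were 0 without Selenbp1-KO replicate 1 or 2, the podocyte count also without WT replicate 2 or Selenbp1-KO replicate 3. Without single arrays the medians of these 4 lists ranged between -0.041 and 0.11. In none of these lists, and in none of those above, did a gene reach an adjusted p under 0.05 in limma, the lowest being 0.279. The part of the stromal, immune, and injury markers in the values of the 8 genes was not tested.

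**Figure D5:**
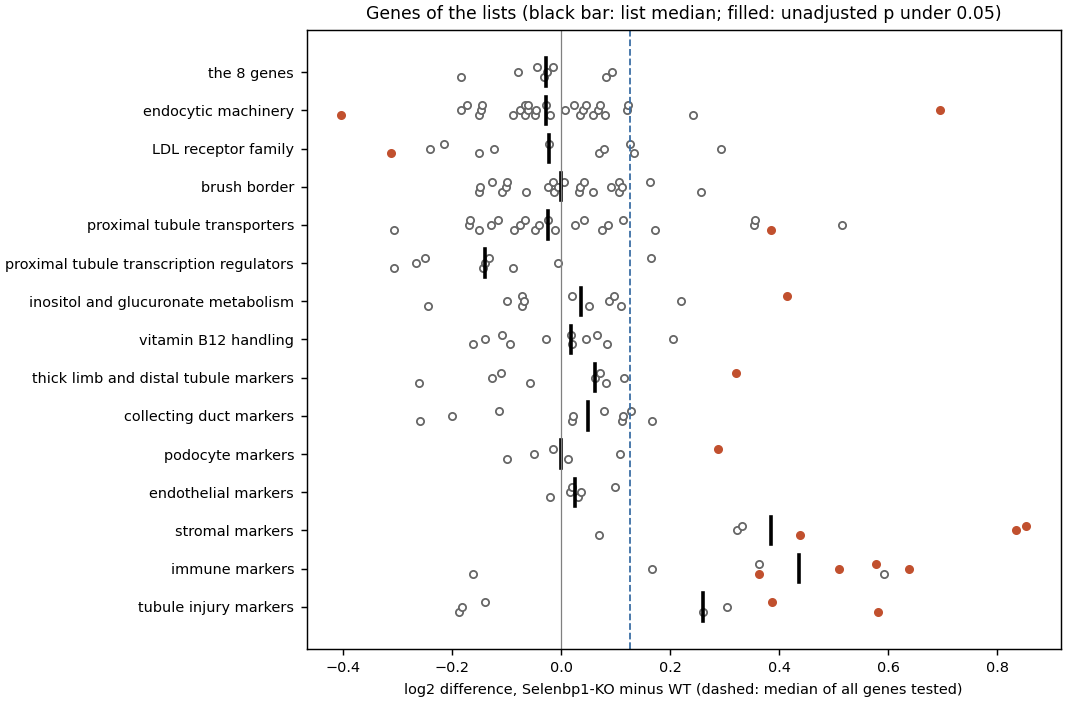
Log2 difference between Selenbp1-KO and WT (x axis) for each gene (circle) of the 8 and of the 14 lists (y axis); filled circles have an unadjusted p under 0.05 and black bars are list medians. The 8 genes lie between -0.18 and 0.094 with none filled, while stromal and immune markers have medians of 0.38 and 0.44; the dashed line is the median of all genes tested, 0.13.

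The mean profile of the 8 genes over the 6 arrays was compared with those of 17162 other genes whose probes were well above background on all arrays, by the root mean square distance of centered log2 signals. The nearest were Alg1 (0.0090), Add1 (0.0114), Ubac1 (0.0114), Ttc13 (0.0150), and Ppil2 (0.0177), which differed between genotypes by -0.033, -0.029, -0.022, -0.043, and -0.0062. Of the 8 themselves Hnf4a was nearest to the mean profile (0.0275) and Amn farthest (0.145). The median distance of the 17162 compared genes was 0.127, and 10168 of them lay no farther than Amn. With 6 arrays these distances describe the arrays at hand and carry no test.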

How the data were processed

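RNA of 6 kidneys was measured on 6 single-color arrays. The authors deposited, for each array, the output of Agilent Feature Extraction (version 10.7.1.1 in the file headers, 9.5.1.1 per the labels): linear intensities, background-subtracted within the array and not scaled between arrays, and a detection p-value per spot. They also deposited a table of linear intensity values per probe, whose columns share their quartiles and keep the scanner's ranking of probes, as quantile normalization gives; the software that made it is not given in the sources used here. Probe coordinates come from the array files (mm9), and the part of the transcript each probe reads was not analysed here.

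Processed signals were put on the log2 scale and scaled by subtracting, for each array, the log2 of the 75th percentile of its non-control spots. Flagged outlier spots, 44 to 73 on an array, were left out and spots of a probe averaged. The filter of the methods, a detection p under 0.05 on 1 or more of the 6 arrays, kept 56097 of 56605 probes. Genotypes, taken from the labels, were compared by limma 3.58.1 in R 4.3.3 (lmFit, then eBayes; two-sided). A call is an unadjusted p under 0.05, which is the threshold of the methods, and Benjamini-Hochberg values over all probes are given beside it. The p-values measure the spread between mice. A gene is represented by its brightest probe, and a standard error is that of limma. No sample was left out. The precision is limited by 3 arrays per genotype.

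The 8 genes and the lists were chosen with earlier results of these data known. The genes named are the 8 with every probe, Selenbp1, of each list those past the threshold (at most 6, filled up to 3 by size of difference), and the 5 genes nearest the mean profile; 1 gene that this rule names is not reported here. Alternatives were normexp (offset 50), quantile normalization, scaling by the median or by the 75th percentile of probes well above background, the value table, 2 other filters, flagged spots kept, trend and robust options, a t-test per probe, slide side and replicate number as blocks, each array left out, and averaging a gene's probes. For the arrays the methods name limma, not the t-test. Figures were drawn with matplotlib 3.10.9.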

Additional observations from a re-analysis of the deposited data

How the results depend on the processing

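Of the 8 genes, Vil1 and Dab2 kept their direction under all 20 alternatives. Not all of these could turn a sign. The 2 other filters, flagged spots kept, the trend and robust options, and the t-test left the differences of the 8 as reported. The number of the 8 past the threshold was 0, where 7.98% of all probes passed. It was 2 with quantile normalization (Dab2, Vil1; 8.37% of all probes) and 3 in the value table (Dab2, Vil1, Hnf4a; 8.36%). It was 1 (Vil1) when only probes well above background were kept (9.96% of those tested). The same count came with trend and robust options (13.4%) and with a t-test per probe (7.09%). The number of all probes past it was 4479, but 14616 with scaling by the median, 2841 when only probes well above background were kept, 7536 with trend and robust options, and 2024 to 17585 when single arrays were left out, 17585 being without WT replicate 4 and 2024 without WT replicate 2. Of the probes past the threshold, 81.1% were higher in Selenbp1-KO, 53.8% with quantile normalization, 93.6% with scaling by the median, and 37.3% when the slide side was a block. The causes were not tested.

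Replicate numbers are shared by the genotypes only for 2 and 3, whose deviations from the genotype means correlated at 0.164 and 0.211, so the numbers are not taken as pairs. With the replicate block 18430 probes (32.9%) passed and 0 of the 8 genes. That fit compares WT replicates 2 and 3, on side 1, with Selenbp1-KO replicates 2 and 3, on side 2. Slide side and genotype cannot be told apart in it. Signs that turned with the replicate block were those of Cubn (0.12), Hnf4a (0.020), and Lrp2 (0.074), of Lrp2 probes 2 (0.078), 4 (0.093), and 5 (0.034), counted by brightness, of Dab2 probe 4 (0.16), and of Pdzk1 probe 2 (-0.027). Blocking on slide side, like the comparison within side 2, turned Amn to 0.11, Miox to -0.15, and Pdzk1 to -0.017; both set WT replicate 4 alone against 3 arrays. With quantile normalization Miox turned to -0.12 and Pdzk1 to -0.018, and in the value table to -0.043 and -0.0064. When single arrays were left out, differences ranged from -0.095 to 0.070 for Amn, -0.14 to 0.11 for Cubn, -0.079 to 0.0079 for Hnf4a (second probe -0.14 to 0.047), and -0.099 to 0.100 for Lrp2. Over the same arrays they ranged from -0.16 to 0.11, -0.21 to 0.071, and -0.12 to 0.019 for Lrp2 probes 2, 4, and 5, from -0.13 to 0.024 and -0.69 to 0.033 for Dab2 probes 2 and 4, and from -0.032 to 0.17 for Pdzk1 probe 2. All 17 probes were well above background on all 6 arrays, but Dab2 probe 4 moved from -0.36 to -0.027 with normexp.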
